A study of Mus musculus with 2 samples.

Results

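Interferon-stimulated genes were compared between livers of mice given antagomir-122 and livers of mice given a scrambled oligonucleotide. The list held 42 genes that type I or type II interferon is known to induce, or that carry the response, and it was taken as named. Values came from probe sets annotated to 1 gene, and 40 of the 42 genes had such a probe set, among 18193 genes on the array. The probe set of Isg15 was annotated to several genes and was not used, and Ifi44 was not analysed here.

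The samples were 2 arrays, 1 for each group, and each array carried biotin-labelled cRNA from RNA pooled from 3 livers. The antagomir-122 group received an oligonucleotide directed against miR-122, a microRNA abundant in hepatocytes. The mm-antagomir-122 group received the scrambled control oligonucleotide. Mice of both groups were given a daily dose of 80 mg/kg for 3 days, and livers were taken 24 h later. Strain, sex and age are not given in the sources used here. Both groups were injected with an oligonucleotide, so a response common to both does not appear in their ratio, and no uninjected liver was analysed here.

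Interferons are secreted when cells sense foreign nucleic acid. Receptors on the cell surface pass the signal through JAK kinases to STAT proteins, and a complex that holds STAT2 and IRF9 then binds a short element, the interferon-stimulated response element, before the start of its target genes. The products of those genes degrade viral RNA, stop translation, block virus entry and raise antigen presentation. In liver both hepatocytes and Kupffer cells can respond. Injected oligonucleotides can themselves be seen by nucleic acid sensors, so the comparison asks whether the oligonucleotides differed in an interferon response.

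The response element is what many of these genes share, and 5 stretches that hold its core are shown to make it visible. The sequences are 160 bases long, end at the base before the gene's start and come from RefSeq (GRCm38.p6). Capitals mark the core, searched as GAAA, any 2 bases and GAAA again and, for the other strand, as TTTC, any 2 bases and TTTC again. The 5 genes with the highest signal among those with a match were Ifitm3, Ifitm2, Bst2, Ifih1 and Ddx58, but the matches in Ifitm3, Ifih1 and Ddx58 lie after the gene's start and are not shown. Oas1a, Ifit3 and Ifit1 were shown in their place as examples with 2 matches before the start, chosen after their values were seen. They lie at chr7:140955962-140956121 (minus strand), chr8:71537473-71537632 (minus), chr5:120907526-120907685 (minus), chr19:34583369-34583528 (plus) and chr19:34640729-34640888 (plus), in the order shown.
Ifitm2: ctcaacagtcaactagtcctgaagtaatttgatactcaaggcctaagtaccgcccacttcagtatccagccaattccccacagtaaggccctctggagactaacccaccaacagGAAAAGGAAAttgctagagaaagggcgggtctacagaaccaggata
Bst2: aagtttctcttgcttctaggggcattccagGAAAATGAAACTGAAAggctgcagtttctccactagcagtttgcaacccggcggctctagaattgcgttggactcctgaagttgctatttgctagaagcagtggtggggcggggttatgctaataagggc
Oas1a: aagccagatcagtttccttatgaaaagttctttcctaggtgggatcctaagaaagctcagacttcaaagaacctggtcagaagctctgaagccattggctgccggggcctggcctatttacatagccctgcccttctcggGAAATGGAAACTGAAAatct
Ifit3: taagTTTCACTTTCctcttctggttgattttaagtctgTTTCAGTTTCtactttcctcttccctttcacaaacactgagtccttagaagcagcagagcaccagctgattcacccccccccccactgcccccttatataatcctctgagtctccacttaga
Ifit1: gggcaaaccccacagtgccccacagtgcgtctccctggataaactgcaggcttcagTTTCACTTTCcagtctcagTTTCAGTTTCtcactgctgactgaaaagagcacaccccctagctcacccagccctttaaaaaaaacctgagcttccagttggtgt

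Of the 42 genes, 33 had a promoter window in the table, which runs from 250 bases before to 50 bases after a gene's start. The core was found in 16 of the 33 (48.5%), against 1079 of 27025 genes (3.99%) in the whole table. In 12 of the 16 at least 1 match lay before the gene's start, and in the other 4 every match lay after it. The 2 matches in Bst2 overlap each other, as do those in Oas1a, whereas those in Ifit1 and Ifit3 are separate. A second element, the STAT-binding core TTCNNNGAA, which reads the same on both strands, was found in 11 of the 33 genes (33.3%), against 9.55% of all genes. Both cores were present in 5 of the 33 genes, and in 2 of these a match of one overlapped a match of the other.

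The interferon-stimulated genes as a list stood close to the bulk of the genes. A gene was kept where its brightest probe set had a geometric mean signal of at least 238, the 60th percentile of the probe sets, and 34 of the 42 genes passed. Their median log2 ratio, antagomir-122 over mm-antagomir-122, was 0.08 (1.06-fold), against 0.00 over all 10003 genes above this floor. Of the 34, 1 was at least 1.5-fold higher in the antagomir-122 pool, where 5.12% of all genes were. None of the 34 was at least 1.5-fold lower, where 2.62% of all genes were. Each group had a single array, so the spread between replicates is unknown and none of these differences was tested. In RNA from whole liver, fewer cells of a type and less RNA per cell cannot be told apart.

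The spread of the ratios was also close to that of other genes. The SD over the 34 genes was 0.33 on the log2 scale, against 0.34 over all genes, and the ratios ran from -0.50 to 0.81. The spread between probe sets was taken from the difference between the brightest and the second probe set of 3860 genes. It was 0.28 on the log2 scale, as the SD of that difference scaled to a single probe set, so the difference itself varies more. Both probe sets were read from the same arrays, so this spread holds no variation between arrays or livers. Of the 34 genes, 20 lay within this spread (58.8%), against 64.9% of all genes. A ratio above 0 was found for 23 of the 34 (67.6%), against 50.3% of all genes. With median centring it was 19 of 34, against 42.8% of all genes, and with scaling on the spiked hybridization controls 28 of 34, against 84.1%. These scalings shift every gene alike, the second by 0.27 on the log2 scale, so the position of 0 among the ratios is set by the scaling. The median of the members minus that of all genes was 0.075 as deposited and under both scalings, and was not tested.

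**Figure D1:**
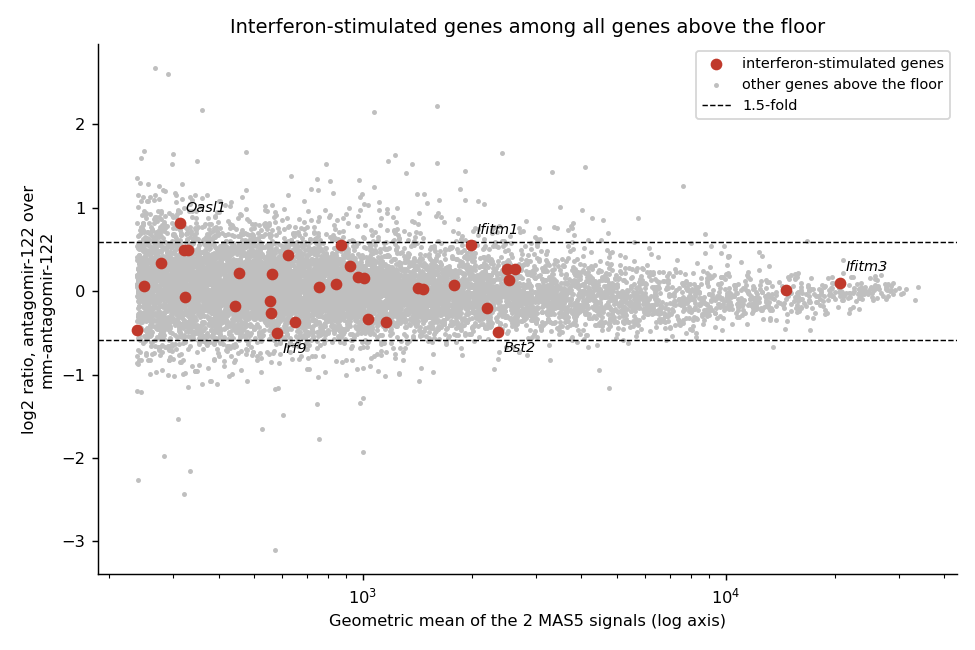
Log2 ratio of antagomir-122 over mm-antagomir-122 (vertical axis) against the geometric mean of the MAS5 signals of both arrays (horizontal log axis), 1 point per gene above the floor. The 34 interferon-stimulated genes (red) lie within the cloud of other genes (grey), between -0.50 and 0.81, and Oasl1 is the member above the upper 1.5-fold line.

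The sensing genes had a median log2 ratio of 0.15 over 4 genes above the floor, and 2 of them, Ifih1 and Ddx58, had almost the same signal in both pools. Ifih1, which encodes MDA5, a sensor of long double-stranded RNA, had a signal of 1482 in the antagomir-122 pool and 1454 in the mm-antagomir-122 pool. Ddx58, which encodes RIG-I, a sensor of RNA ends, had 1440.4 in the antagomir-122 pool and 1398 in the mm-antagomir-122 pool. These were log2 ratios of 0.03 and 0.04, well inside the spread between probe sets. Dhx58, the related helicase LGP2, had 312.5 in the antagomir-122 pool and 246.5 in the mm-antagomir-122 pool. Its log2 ratio was 0.34, and its second probe set above the floor had 0.19. Trim25, a ubiquitin ligase that acts on RIG-I, had 2872 in the antagomir-122 pool and 2393 in the mm-antagomir-122 pool. Its 3 probe sets had log2 ratios between -0.01 and 0.26. The sensor gene Zbp1, which binds nucleic acid in the Z form, was under the floor on both arrays.

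Transcription factors of the response pointed both ways, 4 of 7 above 0 and 3 below, with a median log2 ratio of 0.07. Stat2 and Irf9 encode subunits of the same complex and had ratios of opposite sign on their brightest probe sets. The signal of Stat2 was 724 in the antagomir-122 pool and 534 in the mm-antagomir-122 pool, a log2 ratio of 0.44. Its other probe set had 234.6 in the antagomir-122 pool and 310.7 in the mm-antagomir-122 pool, at least 1.30-fold lower against the floor. The Stat2 probe sets thus disagreed in sign, and their mean log2 ratio was 0.028 with the dim signal raised to the floor. For Irf9 the signals were 487.5 in the antagomir-122 pool and 691.5 in the mm-antagomir-122 pool. Its log2 ratio of -0.50 was the lowest of the 34 genes and rested on 1 probe set, whose suffix marks probes shared by transcripts of the gene.

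Irf7, the main amplifier of interferon-alpha genes and itself induced by interferon, had 2052 in the antagomir-122 pool and 2365 in the mm-antagomir-122 pool. Its log2 ratio of -0.21 was within the spread between probe sets. Irf3, the constitutive factor that starts interferon transcription, had 2730.0 in the antagomir-122 pool and 2276 in the mm-antagomir-122 pool on its brightest probe set. Across the 3 probe sets above the floor the ratio ran from -0.42 to 0.40, without a common sign. Irf1, an activator strongly induced by interferon-gamma, had 1827 in the antagomir-122 pool and 1741 in the mm-antagomir-122 pool, a log2 ratio of 0.07. Irf2, which competes with Irf1 for its sites, had 923 in the antagomir-122 pool and 1162 in the mm-antagomir-122 pool, a log2 ratio of -0.33. Irf8, a factor of myeloid and dendritic cells, had 1063 in the antagomir-122 pool and 950.1 in the mm-antagomir-122 pool. Both of its probe sets were above 0, at 0.16 and 0.44.

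**Figure D2:**
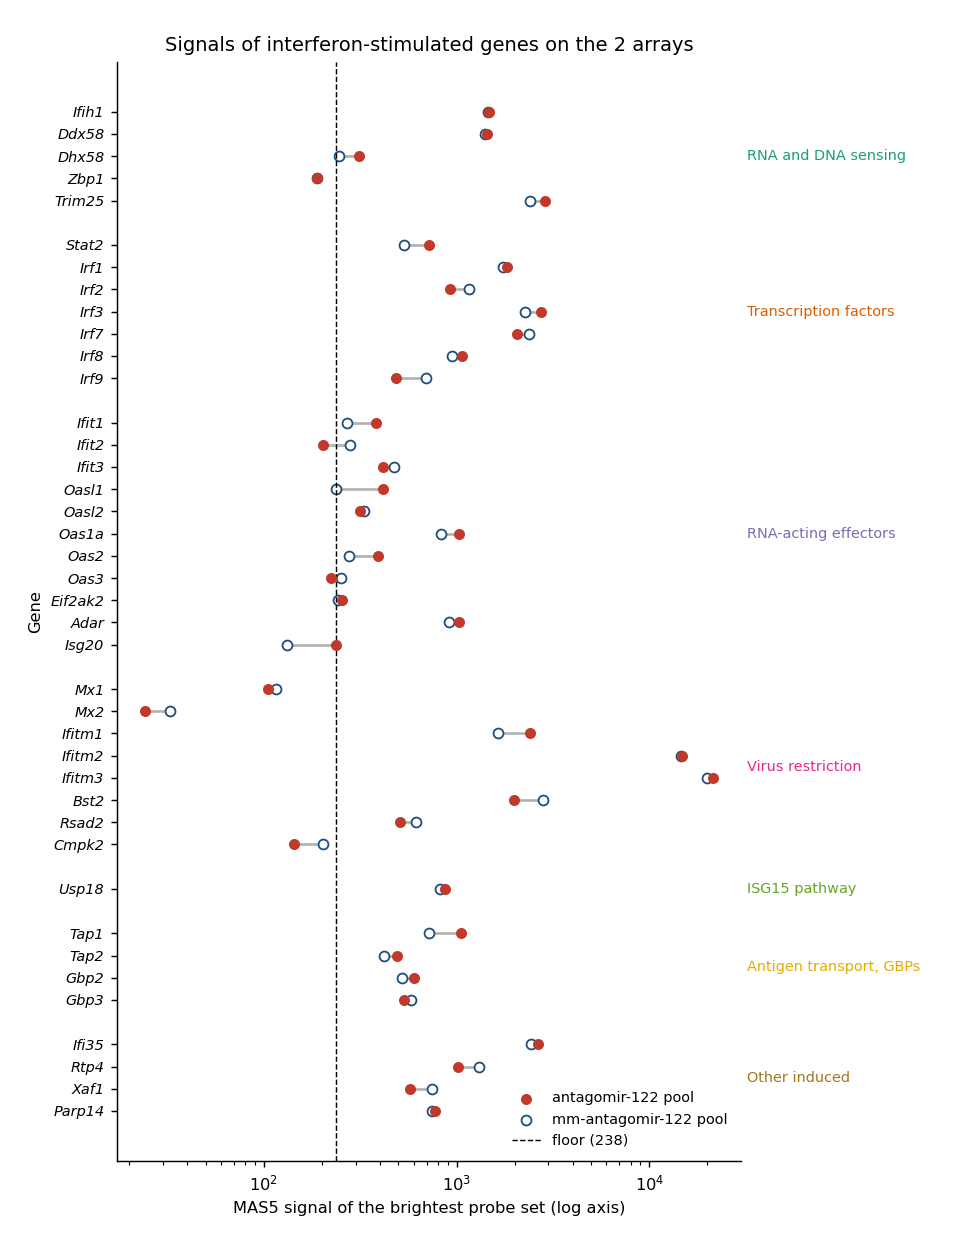
MAS5 signal of the brightest probe set (horizontal log axis) of the 40 measured interferon-stimulated genes in the antagomir-122 pool (filled red) and the mm-antagomir-122 pool (open blue), 1 array each, grouped by role. Most pairs nearly coincide; the dashed line is the floor at a signal of 238, and Zbp1, Isg20, Mx1, Mx2 and Cmpk2 lie left of it on both arrays.

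Effectors that act on RNA held the member with the highest ratio. Oasl1, an oligoadenylate synthetase-like protein known in mice to restrain Irf7 translation, had 414.7 in the antagomir-122 pool and 235.9 in the mm-antagomir-122 pool. The mm-antagomir-122 signal was just under the floor, so the gene was at least 1.74-fold higher, on 1 probe set. Its paralog Oasl2 had 317 in the antagomir-122 pool and 332 in the mm-antagomir-122 pool, a log2 ratio of -0.07. The paralogs thus did not share the shift, but the difference between them has no replicate check.

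The oligoadenylate synthetases make the second messenger that turns on RNase L. Oas2 had 390.4 in the antagomir-122 pool and 277 in the mm-antagomir-122 pool, a log2 ratio of 0.50. Oas1a had 1024 in the antagomir-122 pool and 832 in the mm-antagomir-122 pool, a log2 ratio of 0.30, and belongs to a family of close copies that its probes may not separate. Oas3 had 223 in the antagomir-122 pool and 250.1 in the mm-antagomir-122 pool, and its mean was under the floor.

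The IFIT proteins bind foreign RNA and are among the most strongly interferon-induced proteins known. Ifit1 had 382 in the antagomir-122 pool and 272 in the mm-antagomir-122 pool, a log2 ratio of 0.49. Ifit2 had 203 in the antagomir-122 pool and 280.0 in the mm-antagomir-122 pool, at least 1.18-fold lower against the floor. Ifit3 had 418 in the antagomir-122 pool and 474 in the mm-antagomir-122 pool, a log2 ratio of -0.18, and its probes may not separate it from its near copy Ifit3b. The 3 IFIT genes lie together on chromosome 19, Ifit1 and Ifit3 with 2 copies each of the core shown above, and their ratios did not share a direction.

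Eif2ak2, the kinase PKR that stops translation on double-stranded RNA, had 255 in the antagomir-122 pool and 243.5 in the mm-antagomir-122 pool. Adar, which edits adenosine in double-stranded RNA, had 1027.5 in the antagomir-122 pool and 916 in the mm-antagomir-122 pool. Their log2 ratios were 0.06 and 0.17, and the second probe set of Adar had 0.02. Isg20, an RNA exonuclease, had 237 in the antagomir-122 pool and 132 in the mm-antagomir-122 pool. Both signals were under the floor, so no fold is given.

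Genes that restrict viruses had 5 of 8 members above the floor, with a median log2 ratio of 0.016. Ifitm1, Ifitm2 and Ifitm3 encode related membrane proteins that block virus entry. Ifitm3 had 21331 in the antagomir-122 pool and 20009 in the mm-antagomir-122 pool, and Ifitm2 had 14753 in the antagomir-122 pool and 14591 in the mm-antagomir-122 pool. Their log2 ratios were 0.09 and 0.02, in a range near the top of the scale where a difference can be hidden. Ifitm1 had 2406 in the antagomir-122 pool and 1636 in the mm-antagomir-122 pool. Its log2 ratio of 0.56 was just under the 1.5-fold limit of 0.58 and, with loess correction, just over it at 0.59.

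Bst2, or tetherin, which holds budding virus at the cell surface, had 1997 in the antagomir-122 pool and 2797 in the mm-antagomir-122 pool. Its log2 ratio was -0.49, and its promoter holds the response element shown above. Rsad2, or viperin, had 509.6 in the antagomir-122 pool and 613.5 in the mm-antagomir-122 pool. Its probe sets above the floor had log2 ratios of -0.27 and 0.03. Mx1 and Mx2, dynamin-like GTPases whose transcripts are used as interferon readouts, were dim on both arrays. Mx1 had 105.5 in the antagomir-122 pool and 115.5 in the mm-antagomir-122 pool, and Mx2 had 24.3 in the antagomir-122 pool and 32.7 in the mm-antagomir-122 pool. Cmpk2, a mitochondrial nucleotide kinase, had 144 in the antagomir-122 pool and 203 in the mm-antagomir-122 pool. These 3 genes had both signals under the floor, where without detection calls a value cannot be told from background.

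Usp18, which removes the ubiquitin-like modifier ISG15 and restrains signalling at the interferon receptor, had 866.5 in the antagomir-122 pool and 816.5 in the mm-antagomir-122 pool. Its log2 ratio was 0.09, inside the spread between probe sets.

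Antigen transport genes and guanylate-binding proteins had a median log2 ratio of 0.21 over 4 genes. Tap1 and Tap2 encode the subunits of the pump that carries peptides to MHC class I. Tap1 had 1051 in the antagomir-122 pool and 717 in the mm-antagomir-122 pool, a log2 ratio of 0.55. Tap2 had 490.3 in the antagomir-122 pool and 421 in the mm-antagomir-122 pool, a log2 ratio of 0.22. Both subunits were on the higher side, Tap1 outside the spread between probe sets and Tap2 within it. Gbp2, a GTPase of defence against intracellular pathogens, had 601 in the antagomir-122 pool and 523 in the mm-antagomir-122 pool, with log2 ratios of 0.20 and 0.22 from its 2 probe sets. Gbp3 had 532 in the antagomir-122 pool and 577 in the mm-antagomir-122 pool, a log2 ratio of -0.12.

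Of the remaining induced genes, Xaf1 was the member with the widest disagreement between probe sets. Xaf1 promotes apoptosis. On its brightest probe set the signals were 572 in the antagomir-122 pool and 742 in the mm-antagomir-122 pool, a log2 ratio of -0.37. On the other they were 607 in the antagomir-122 pool and 204 in the mm-antagomir-122 pool, at least 2.55-fold higher. The mean over both was 0.60 as deposited and 0.49 with the dim signal raised to the floor, so whether it passed 1.5-fold rested on a signal below the floor. The probe sets of Xaf1 disagreed in sign.

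Rtp4, a chaperone of receptor transport, had 1020.3 in the antagomir-122 pool and 1314 in the mm-antagomir-122 pool, a log2 ratio of -0.37. Parp14, an ADP-ribosyltransferase, had 769 in the antagomir-122 pool and 745 in the mm-antagomir-122 pool, a log2 ratio of 0.04. Ifi35 had 2650 in the antagomir-122 pool and 2425 in the mm-antagomir-122 pool, and its 3 probe sets ran from -0.08 to 0.13. None of these 3 genes reached 1.5-fold.

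**Figure D3:**
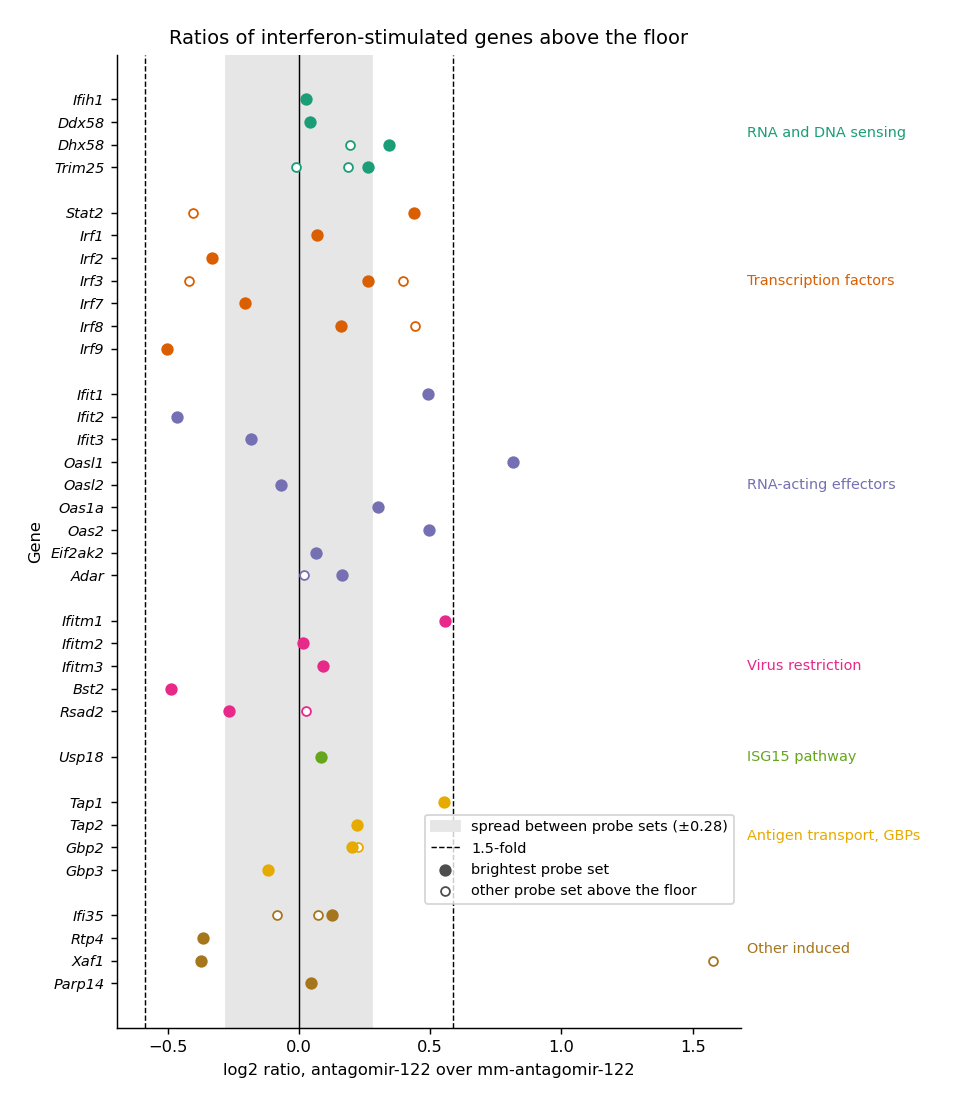
Log2 ratio of antagomir-122 over mm-antagomir-122 (horizontal axis) for the 34 interferon-stimulated genes above the floor, by role; filled points are the brightest probe set and open points the others above the floor. The grey band is the spread between probe sets (0.28), which holds 20 of the 34 genes, and the dashed lines mark 1.5-fold; Oasl1 and an open point of Xaf1 lie beyond them.

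Agreement between probe sets of the same member was limited. A second probe set was above the floor for 10 of the 34 genes, and it had the sign of the brightest in 5 of them, against 62.3% of 3860 genes in the whole table. The spread between the brightest and second probe sets, scaled to a single probe set as above, was 0.54 for these 10 genes. It was 0.27 without Xaf1, against 0.28 over all genes. Over all of their probe sets above the floor, 6 of the 10 genes had ratios of both signs. The other 24 genes rested on 1 probe set. Of the 34 brightest probe sets, 11 carried a suffix that marks shared or cross-hybridising probes.

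Presence of the response element did not separate higher from lower members. The 14 genes above the floor that hold it had a median log2 ratio of 0.04, from -0.49 to 0.49, and 9 lay above 0. The 14 genes with a window that lacks it had a median of 0.14, from -0.50 to 0.81, and 9 lay above 0. Oasl1 is among those without a match in the window.

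The genes before and around the response were also near the bulk of the genes. Of the interferon genes, Ifna2 was above the floor, with 529.5 in the antagomir-122 pool and 466 in the mm-antagomir-122 pool. Ifnb1 and Ifng were under it on both arrays. The 9 receptor, kinase and STAT genes above the floor had a median log2 ratio of -0.06. Past 1.5-fold were 0 of 9 in either direction, against 5.12% of all genes upwards and 2.62% downwards. Ifnar1, a receptor subunit for type I interferon, had -0.33 on its brightest probe set and 0.22 on the other, while the kinase gene Jak1 had 0.21. Ifngr2, a receptor subunit for interferon-gamma, had 0.13 and Stat3 had -0.14.

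Sensing genes upstream of interferon had a median of 0.08 over 11 genes. Of these, 0 of 11 passed 1.5-fold, against 5.12% of all genes upwards and 2.62% downwards. Unc93b1, which carries endosomal Toll-like receptors to their compartment, had 1627 in the antagomir-122 pool and 1256.5 in the mm-antagomir-122 pool, a log2 ratio of 0.37. Irf5, a factor downstream of those receptors, had 0.38 and, on another probe set, 1.22. The adaptor gene Ticam1 had 0.31, and the kinase gene Irak1 had -0.43, with all 4 of its probe sets below 0. Tlr7, an endosomal receptor for single-stranded RNA, had a mean under the floor, with 309 in the antagomir-122 pool and 176 in the mm-antagomir-122 pool, at least 1.30-fold higher. Tlr8 likewise had 253 in the antagomir-122 pool and 186.5 in the mm-antagomir-122 pool, at least 1.06-fold higher. Both folds are bounds against the floor, for genes whose mean is under it, and without detection calls such dim signals may be background.

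Further genes known to be induced by type I interferon, outside the 42, had a median log2 ratio of 0.14 over 25 genes. Of these, 17 lay above 0, 2 passed 1.5-fold upwards and 1 passed it downwards, where the shares over all genes were 50.3%, 5.12% and 2.62%. Lgals3bp, a secreted binding protein of galectins, had 6147 in the antagomir-122 pool and 3409 in the mm-antagomir-122 pool, 1.80-fold higher on 1 probe set. Samhd1, which breaks down nucleotides, had 1139 in the antagomir-122 pool and 493 in the mm-antagomir-122 pool, 2.31-fold higher, on a probe set whose probes may detect other transcripts. Its other 3 probe sets above the floor were all under 1.5-fold, and without suffixed probe sets its log2 ratio was 0.17. Herc6, a ligase of ISG15 in mice, was 1.56-fold lower on its brightest probe set and had a log2 ratio of 0.19 on the other. Tor3a had 0.56.

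Genes induced by interferon-gamma had a median of 0.01 over 13 genes. Of these, 0 passed 1.5-fold upwards and 1 passed it downwards, against 5.12% and 2.62% of all genes. That gene, Gbp6, had 790.2 in the antagomir-122 pool and 1529 in the mm-antagomir-122 pool, 1.94-fold lower, while its other probe set had a log2 ratio of -0.12. Irgm2 had -0.27, Nlrc5, an activator of MHC class I genes, had 0.24, and Irgm1 had 0.21.

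Markers of leukocytes were higher in the antagomir-122 pool while the interferon-stimulated genes were near 0. The median log2 ratio was 1.09 for 8 neutrophil markers, 0.40 for 12 macrophage markers and 0.59 for 8 lymphocyte markers. Of these, 7 of 8, 12 of 12 and 8 of 8 lay above 0, against 50.3% of all genes. At least 1.5-fold higher were 5 of 8, 2 of 12 and 4 of 8, against 5.12% of all genes. Mpo and Ltf among the neutrophil markers and Cd79a among the lymphocyte markers were kept though their mm-antagomir-122 signals were under the floor. Against the floor Ltf was at least 1.54-fold higher and Cd79a at least 1.17-fold higher. Their signals also enter the sums given below. The neutrophil genes S100a8, S100a9 and Ngp had log2 ratios of 2.22, 2.14 and 1.32, and Mpo was at least 1.68-fold higher. Csf3r had 0.37 and Mmp8 had 0.27, the latter within the spread between probe sets. Elane went the other way, with 261 in the antagomir-122 pool and 323 in the mm-antagomir-122 pool, a log2 ratio of -0.31. The neutrophil median was 0.69 when every signal below the floor was raised to it. Among macrophage markers C1qc, Adgre1, Cd68 and Lyz2 had 0.69, 0.60, 0.50 and 0.46, the largest of the list. Clec4f, Timd4 and Cd5l had 0.24, 0.20 and 0.14, within the spread between probe sets. Among lymphocyte markers Ighm, Gzma, Nkg7 and Ms4a1 had 1.09, 0.94, 0.68 and 0.67, and the mean over the 4 probe sets of Ighm was 0.47. Cd79b had 0.02, and Cd3e and Cd3g were under the floor on both arrays. Of 6 markers of plasmacytoid dendritic cells, the main interferon producers, 2 were above the floor, Klk1 at 0.18 and Tcf4 at 0.11, and Siglech was under it on both arrays. Summed over the markers above the floor, the signal was 8902 in the antagomir-122 pool and 3157 in the mm-antagomir-122 pool for neutrophils. For macrophages the sum was 73842 in the antagomir-122 pool and 55902 in the mm-antagomir-122 pool, and for lymphocytes 8917 in the antagomir-122 pool and 5295 in the mm-antagomir-122 pool. The part of these cells in the values of leukocyte-expressed members such as Irf8, Ifitm1 and Tap1 was not tested. The 10 measured hepatocyte markers, which check the labelled tissue, had a median of -0.02, with Apoc3 at 0.14, Apob at -0.10, Cebpa at -0.08 and Hnf4a at -0.07. Alb, Ttr, Apoa1, Apob, Apoc3, Cps1 and Fgb had signals above 16000 on both arrays, a range near the top of the scale where a difference can be hidden.

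**Figure D4:**
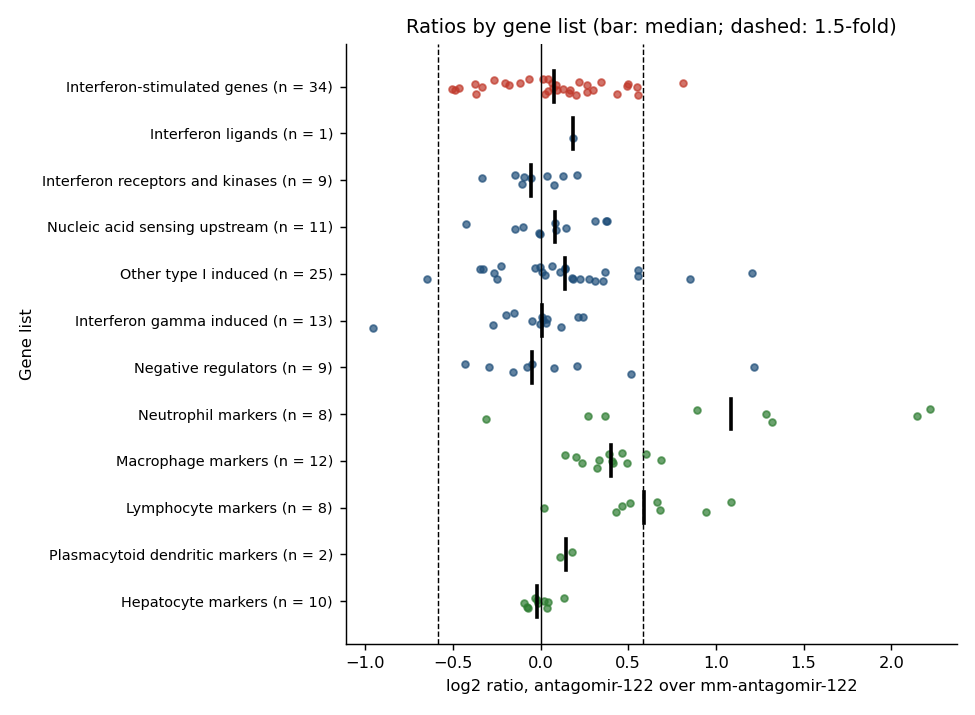
Log2 ratio of antagomir-122 over mm-antagomir-122 (horizontal axis) for the genes above the floor in each list; points are genes, bars are medians and dashed lines mark 1.5-fold. The interferon-stimulated genes (red) have a median of 0.08, and the neutrophil, macrophage and lymphocyte markers (green) have medians of 1.09, 0.40 and 0.59. The other interferon pathway lists (blue) have medians between -0.06 and 0.18, the highest from 1 gene, Ifna2, and their genes run from -0.95 to 1.22.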

How the data were processed

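RNA pooled from 3 livers was measured on 1 array per group. The deposited values were linear signal intensities which the submitters' processing notes credit to MAS5, and their 2% trimmed mean was 500.0 on both arrays. The number of arrays limits the precision, and no test was run. Of 45101 probe sets, 34945 were annotated to 1 gene in the platform annotation, with symbols looked up in RefSeq (GRCm38.p6) for 34741 of them. Probe sets of several genes were not used. The brightest probe set by geometric mean stood for each gene, with a floor at the 60th percentile, no pseudocount, and 1.5-fold as the size limit. A fold with 1 signal below the floor is given against the floor, as a bound. All members were named, with up to 4 genes of each other list by size of ratio and a few further genes of those lists. Members and lists were chosen with earlier results of these data known. The calculation was tested on simulated data (Python 3.11.15, pandas 2.3.3). Alternatives were median centring, quantile and loess (span 0.3) normalization, hybridization control scaling, other floors, the mean over probe sets, a pseudocount of 50, suffixed probe sets left out, and limits of 1.4-fold and 2-fold.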

Additional observations from a re-analysis of the deposited data

How the results depend on the processing

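The median log2 ratio of the interferon-stimulated genes was 0.08 as deposited, 0.021 with median centring and 0.35 with scaling on the hybridization controls. Both scalings move all genes alike. The median over all genes was -0.054 with median centring and 0.28 with scaling on the controls, and the members stayed 0.075 above it. Scaling on the hybridization controls puts 16.9% of all genes past 1.5-fold upwards and 0.63% downwards. Under it 7 members were at least 1.5-fold higher (Dhx58, Ifit1, Ifitm1, Oas2, Oasl1, Stat2 and Tap1). The count of members at least 1.5-fold higher was 1 as deposited. It was 2 with loess correction (Ifitm1 and Oasl1), with the mean over probe sets (Oasl1 and Xaf1, the second on a signal below the floor), and with a floor at the 40th percentile or no floor (Isg20 and Oasl1). It was 0 with a floor at the 80th percentile, where 15 of 19 members lay above 0 against 44.8% of all genes, and 0 at 2-fold. At 1.4-fold 5 of 34 members were higher and 2 lower, against 8.16% and 4.85% of all genes. No member was at least 1.5-fold lower under any of these normalizations, floors or probe set rules. Over all genes the counts past 1.5-fold were 512 higher and 262 lower as deposited, and 400 higher and 375 lower with median centring. Without suffixed probe sets Herc6 turned to 0.19. Raising dim signals to the floor was chosen after seeing the data and left the counts past 1.5-fold and above 0 and the median as reported, with 21 in place of 20 members inside the spread. No paired analysis was possible because each group had 1 array. Without detection calls or replicate arrays, dim signals near the floor limit what can be read for Oasl1, Ifit2 and the members under the floor. Dhx58, Eif2ak2, Ifit1 and Oas2 also had mm-antagomir-122 signals not far above it.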

Other observations

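Genes known to dampen interferon signalling had a median log2 ratio of -0.05 over 9 genes above the floor. Of these, 4 of 9 lay above 0, 1 passed 1.5-fold upwards and 0 downwards. The shares over all genes were 50.3%, 5.12% and 2.62%. Ptpn2, a phosphatase of JAK kinases and STAT proteins, had 2817 in the antagomir-122 pool and 1211 in the mm-antagomir-122 pool, 2.33-fold higher on its brightest probe set, which carries a suffix. Its other probe set above the floor had a log2 ratio of -0.10. Socs3, a feedback inhibitor of cytokine receptors, had 590.0 in the antagomir-122 pool and 795 in the mm-antagomir-122 pool, and its 3 probe sets lay between -0.75 and -0.38. Tnfaip3, which restrains inflammatory signalling, had a log2 ratio of 0.52, and the ubiquitin ligase gene Rnf125, whose product acts on RIG-I, had -0.29. Socs1 was under the floor on both arrays.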
